A study of Arabidopsis thaliana with 9 samples.

Results

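Early heart stage embryos of Col FRI were compared with those of Col-0 across the whole transcriptome of Arabidopsis thaliana. The comparison used every library of both genotypes, 3 of Col FRI and 3 of Col-0, which are 6 of the 9 libraries of the series. Col-0 carries a loss-of-function allele of FRIGIDA (FRI), and Col FRI is the same background with an active FRI allele brought in by crossing, so that the line also carries a flanking piece of chromosome 4 from the donor. The other 3 libraries came from 35S::FCA, which is Col-0 overexpressing the FLC repressor FCA, and entered only the estimate of spread. Each library was a Smart-seq2 mRNA library, a low-input method that amplifies cDNA, made from 20 dissected embryos. All seeds were held at 4 °C for 3 days before sowing, but only the plants that bore the Col FRI embryos had also spent 6 weeks at 4 °C in short days as seedlings. The FRI allele, the donor segment and the cold given to the parents therefore differed together, and their shares in any difference between the genotypes cannot be told apart.

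FRI is known as the main activator of FLC, a MADS-box repressor of flowering that prolonged cold (vernalization) silences and that is set again to a high level in the embryo. At the heart stage the cotyledons emerge, the embryonic root and the outer cell layer are laid out, and greening begins, before the bulk of the seed reserves is made. Most of the genes described here are therefore grouped by what they do in such an embryo: photosynthesis, reserve making, hormone response, root pole formation, cell division and the daily clock.

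Between 20372634 and 24659741 estimated counts were held by each Col-0 library, and between 15166826 and 18768286 by each library of Col FRI. Chloroplast and mitochondrial genes took 10.4% to 23.7% of a Col-0 library and 19.5% to 20.2% of a Col FRI library. The tissue label was checked against markers: the outer-layer gene PDF1 stood at 773 TPM (a share of transcripts scaled for length) or more and the shoot meristem gene STM at 6.32 TPM or more in each of the 6 libraries, and another embryo gene, WOX8, lay at 0.253 to 0.818 TPM. Some markers of the surrounding tissues were also present. The endosperm genes PHE1, AGL62 and ZOU reached at most 1.27, 0.330 and 2.40 TPM. The seed coat genes BAN and STK reached 5.20 and 8.13 TPM, STK being at a level like that of STM. Another seed coat gene, TT12, lay at 0.0859 to 0.435 TPM. The replicates of the genotypes did not spread alike. Between any pair of Col FRI libraries the median squared difference of a gene's counts was 1.14 to 1.42 times what counting noise alone gives, against 6.32 to 9.18 times between Col-0 libraries. The biological coefficient of variation, the replicate spread left after counting noise, was 0.0348 in Col FRI and 0.221 in Col-0. The labels call the libraries biological replicates, but no source says whether those of Col FRI were taken from separate plants, and p-values that treat them as 3 samples may measure a technical spread on that side.

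Of 18585 genes tested, 1122 were higher (6.04%) and 1342 lower (7.22%) in Col FRI at an adjusted p under 0.05, together 13.3%. Most of these differences were small. The median log2 fold change was 0.49 among the genes called higher, -0.54 among those called lower and -0.01 over all genes tested. A fold above 2 was reached by 148 of the called genes on the higher side (0.796%) and by 283 on the lower side (1.52%). At the stricter rule of an adjusted p under 0.001 and a fold above 2, 12 genes were higher (0.0646%) and 22 lower (0.118%). The libraries of the genotypes did not overlap at 3368 genes on the higher side (18.1%) and 3355 on the lower side (18.1%). Within 2 Mb of FRI 23 genes were higher and 46 lower of 319 tested, while elsewhere in the genome 1099 were higher and 1296 lower of 18266.

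The number of calls changed with how the Col FRI libraries were entered. With limma and a weight for each genotype, which lets the spread differ between genotypes, 1066 genes were higher and 1345 lower. Adding the Col FRI libraries up changes the spread and also leaves 1 sample in that group, and these were not separated. When the counts of the 3 Col FRI libraries were added up and entered as a single sample, so that Col-0 and 35S::FCA alone set the spread, 8 genes were called higher and 12 lower, all 20 of them among the calls above. Leaving out Col FRI replicate 1, 2 or 3 left 352, 300 or 303 genes higher and 380, 325 or 308 lower. Leaving out Col-0 replicate 1 left 742 higher and 828 lower, whereas leaving out Col-0 replicate 3 raised the counts to 1864 and 2275. The groups of genes below are described from the fit with 3 Col FRI libraries. Counts of calls in a group are to be read beside the 6.04% higher and 7.22% lower over all genes tested. The groups were chosen with earlier results of these data known, so a share above these values describes the members and is no separate evidence.

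**Figure D1:**
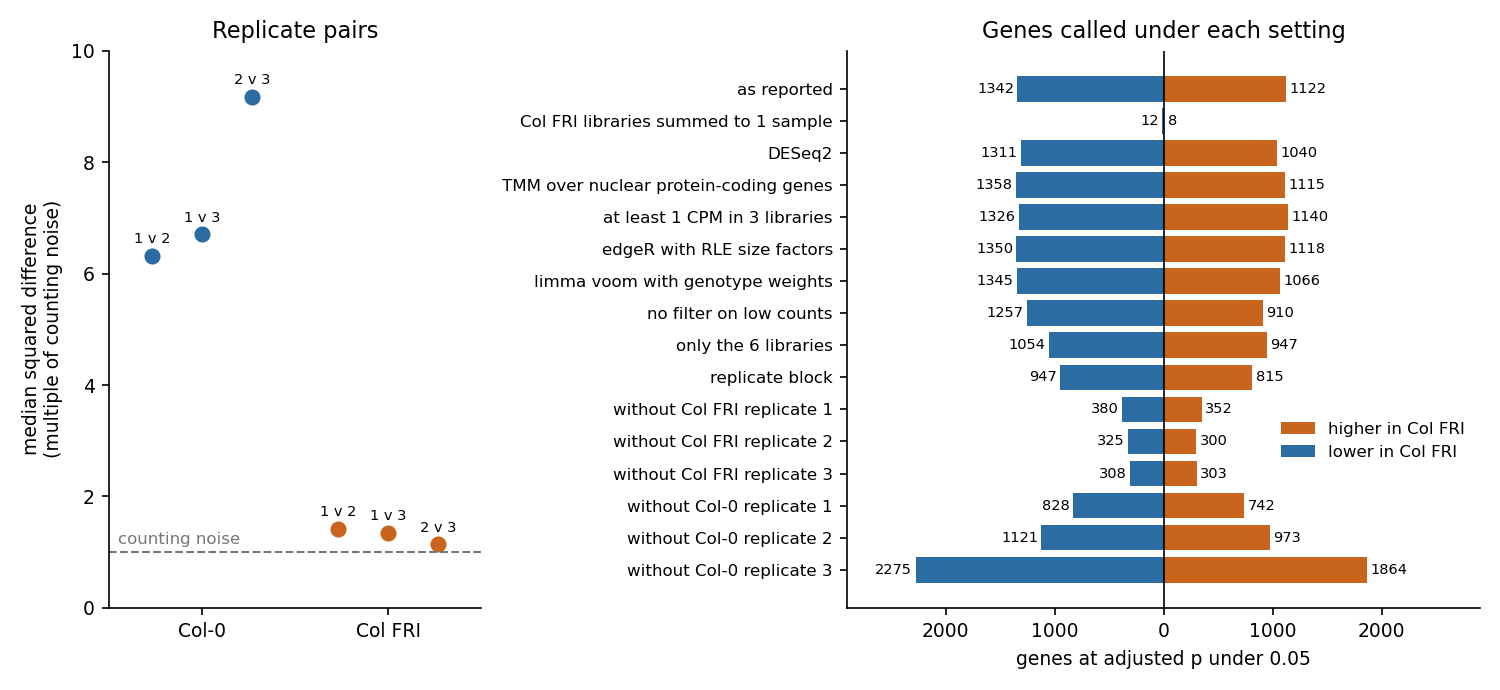
Left, the median squared difference between replicate libraries as a multiple of counting noise (y axis), 1 point for each pair of replicates; the dashed line marks counting noise. Right, genes called higher (to the right) and lower (to the left) at adjusted p under 0.05 in each setting; the pairs of Col FRI lie between 1.14 and 1.42 and those of Col-0 between 6.32 and 9.18, and the calls drop from 1122 and 1342 to 8 and 12 when the Col FRI libraries are summed.

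The genes that distinguish the genotypes by construction behaved as labelled. FLC stood at 30.4, 36.3 and 32.7 CPM (normalised counts scaled to library size) in the Col-0 libraries and at 196, 202 and 201 CPM in Col FRI, a log2 fold change of 2.59 (SE 0.08, adjusted p = 1.92e-07). FRI, whose Col-0 allele is still transcribed, stood at 4.56, 4.59 and 3.93 CPM in Col-0 and at 8.02, 9.37 and 11.0 CPM in Col FRI (log2 fold change 1.11, SE 0.21, adjusted p = 0.00981). Its call was lost without Col FRI replicate 3 and with the Col FRI libraries summed.

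Beyond FLC and the chromosome 4 window, the genes with the smallest p on the higher side were led by AT5G63040, whose product is not characterised (chromosome 5, 25288146 to 25290420, TAIR10.1). It stood at 3.82, 3.61 and 3.82 CPM in Col-0 and at 22.7, 17.7 and 21.3 CPM in Col FRI. The log2 fold change was 2.46 (SE 0.12, adjusted p = 6.53e-06). The groups did not overlap, which the rule that picked these leading genes required. In 35S::FCA embryos the same gene stood at 19.4, 19.2 and 22.0 CPM, so that here Col-0 was the genotype apart.

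GLDP1, the P protein of the mitochondrial glycine decarboxylase that recycles glycine in photorespiration, stood at 27.7, 29.6 and 26.8 CPM in Col-0 and at 56.3, 59.9 and 58.0 CPM in Col FRI (log2 fold change 1.05, SE 0.07, adjusted p = 5.45e-05). Its level in 35S::FCA, 26.9 to 29.5 CPM, lay within the range of Col-0. SOB3, an AT-hook DNA-binding protein known to restrain hypocotyl growth, stood at 13.2, 11.2 and 14.9 CPM in Col-0 and at 34.0, 33.5 and 34.2 CPM in Col FRI (log2 fold change 1.38, SE 0.10). Its 35S::FCA libraries lay in between, at 23.2 to 24.8 CPM.

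The other leading genes on the higher side were of mixed function. They were SIS, annotated as a RLIM-like ubiquitin ligase (log2 fold change 1.2, SE 0.10), the late embryogenesis abundant protein gene AT5G66780 (1.18, SE 0.11), and AT5G15950, an S-adenosylmethionine decarboxylase of polyamine synthesis (1.85, SE 0.20). AT5G15950 has close relatives that can share its reads. CPUORF47, a locus with a conserved upstream peptide, had a log2 fold change of 1.36 (SE 0.13), and AT3G22540 (domain of unknown function) and AT2G36145 had 1.44 (SE 0.11) and 1.32 (SE 0.11). The tenth was AT5G35935, a pseudogene without a count in Col-0, described with the other genes seen in 1 genotype.

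On the lower side GH3.2, which joins the auxin indole-3-acetic acid to amino acids, had the smallest p. It stood at 48.7, 63.9 and 72.4 CPM in Col-0 and at 14.1, 12.9 and 14.1 CPM in Col FRI, and the groups lay far apart (log2 fold change -2.17, SE 0.13, adjusted p = 4.13e-05). CYP707A1, an abscisic acid 8′-hydroxylase that breaks this hormone down, stood at 17.8, 16.1 and 13.3 CPM in Col-0 and at 5.13, 4.11 and 3.85 CPM in Col FRI (log2 fold change -1.84, SE 0.15, adjusted p = 0.000247). P5CR, the enzyme of the last step of proline synthesis, fell from 143, 146 and 98.9 CPM to 32.4, 35.3 and 31.0 CPM (log2 fold change -1.97, SE 0.14). Each of these genes was higher in every Col-0 library than in any Col FRI library, which the rule that picked them required. Their levels in 35S::FCA were 49.3 to 54.4 CPM for GH3.2, 140 to 144 CPM for P5CR and 9.22 to 11.2 CPM for CYP707A1.

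The remaining leading genes on the lower side included a sugar-related gene, surface and wall genes and non-coding loci. DIN10, a raffinose synthase family gene induced in darkness, had a log2 fold change of -1.57 (SE 0.14), the lipid transfer protein gene LTP5 had -2.0 (SE 0.18), and sks5, of the SKU5 family of multicopper oxidase-like wall proteins, had -1.67 (SE 0.15). The small nucleolar RNA SNOR30 had -1.83 (SE 0.16), the uncharacterised AT2G13550 had -1.48 (SE 0.14), and the transcribed pseudogene AT5G14840 had -1.81 (SE 0.14). The list was completed by the pseudogene AT3G21040.

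**Figure D2:**
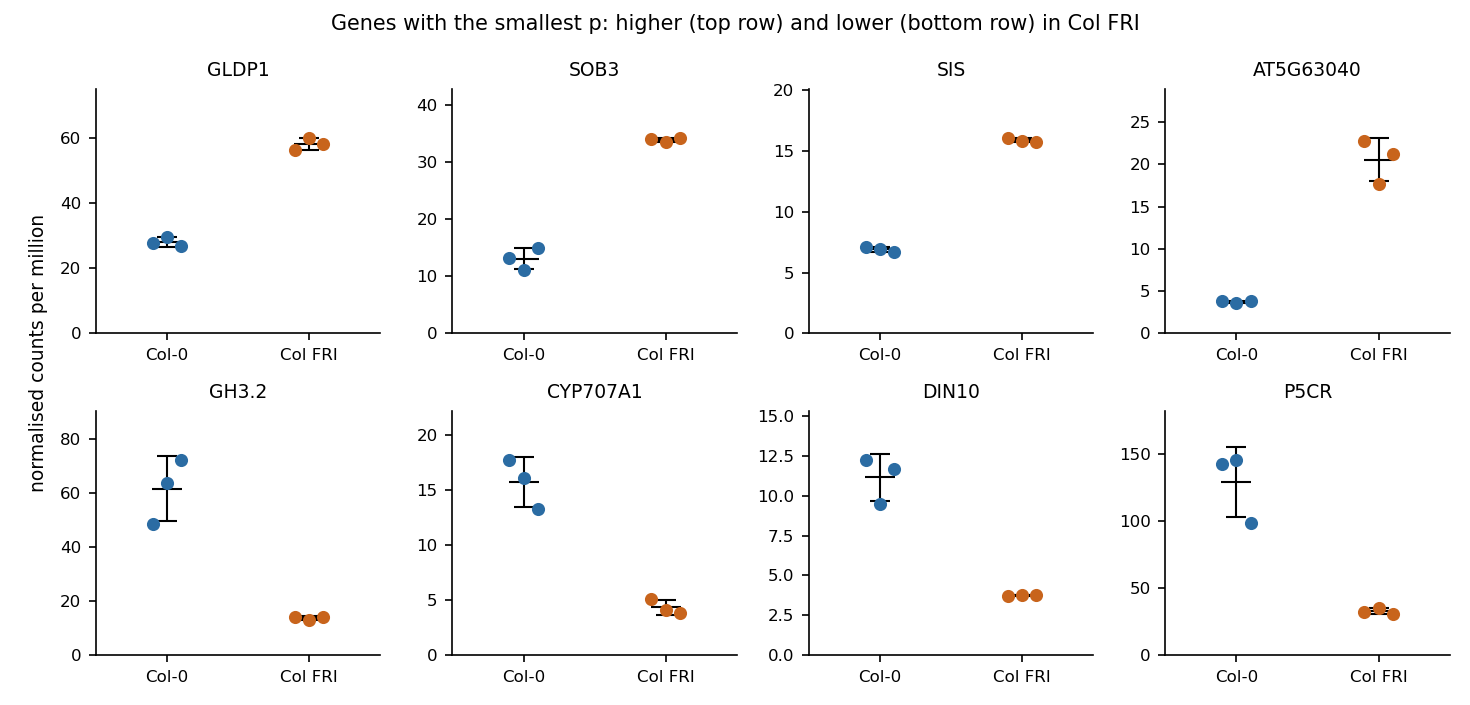
CPM (y axis, from 0) of 8 of the genes with the smallest p outside the FRI window, 1 point for each library, with the mean and SD of 3 libraries as bars. The Col FRI points of each gene lie close together, as for GH3.2 at 12.9 to 14.1 CPM against 48.7 to 72.4 CPM in Col-0. They lie clear of the Col-0 points because the genes were picked for no overlap.

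With the Col FRI libraries summed, 14 of the 20 genes called lay outside the FRI window. On the higher side these were FLC, AT5G63040, GLDP1, SOB3, AT3G22540, AT5G35935 and AT2G36145. On the lower side they were GH3.2, P5CR, CYP707A1, AT5G14840, AT3G21040, SNOR30 and AT4G17350, the last annotated as an auxin canalization protein. The log2 fold change of AT4G17350 was -1.82 in that fit (SE 0.22, adjusted p = 0.0381).

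Among genes of photosynthesis, the antenna proteins that hold chlorophyll around the photosystems were mostly higher. Of 20 antenna genes tested 15 were higher in Col FRI and none lower, with 5 not called and 19 of 20 fold changes above 0. Their median log2 fold change was 0.48, against -0.01 over all genes. LHCB1.1 stood at 43.2, 60.9 and 44.0 CPM in Col-0 and at 117, 122 and 120 CPM in Col FRI (log2 fold change 1.28, SE 0.15, adjusted p = 0.00149). LHCB2.1 stood at 77.0, 91.4 and 77.8 CPM in Col-0 and at 169, 161 and 163 CPM in Col FRI (log2 fold change 1.00, SE 0.14). The LHCB1 copies are nearly identical, so reads can be split between them in error: LHCB1.2 had a log2 fold change of 1.58 (SE 0.19), whereas the most abundant copy, LHCB1.3, had 0.21 (SE 0.11, adjusted p = 0.20). The photosystem I antenna genes LHCA1 to LHCA6 were all called higher, from 0.29 (SE 0.08) at LHCA3 to 0.90 (SE 0.20) at LHCA6. Among them LHCA1 had 0.59 (SE 0.09) and LHCA4 had 0.35 (SE 0.09). The members not called were LHCB1.3, LHCB2.2, LHCB4.3, LHCB5 and LHCB7. With 1 Col FRI library left out 8 or 9 antenna genes were called higher, and without Col-0 replicate 1 the number was 10.

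The core of the photosystems differed less. Of 22 nuclear photosystem subunits tested 7 were higher and 15 not called, although all 22 fold changes were above 0 (median 0.18). PSBP1 and PSBO1, subunits of the oxygen-evolving complex, had log2 fold changes of 0.32 (SE 0.07) and 0.40 (SE 0.09), and the photosystem I subunit PSAO had 0.34 (SE 0.09). All 7 calls were lost with any 1 Col FRI library or with Col-0 replicate 1 left out. Of 20 Calvin cycle and photorespiration genes tested 9 were higher and 1 lower (median 0.35), and with 1 Col FRI library left out 4 or 5 were called higher and none lower. GOX1 and GOX2, near-identical glycolate oxidases of photorespiration, had 0.99 (SE 0.15) and 0.75 (SE 0.12), and GLDP2, the second copy of the glycine decarboxylase P protein, had 0.55 (SE 0.07). PRK, which makes the substrate that Rubisco carboxylates, had 0.58 (SE 0.12), whereas GLYK, the glycerate kinase that closes photorespiration, fell by 0.39 on the log2 scale (SE 0.09). Among other chlorophyll-binding proteins the early light-induced protein ELIP2, which protects greening plastids, stood at 149, 151 and 153 CPM in Col-0 and at 216, 225 and 222 CPM in Col FRI. GUN5, a subunit of the magnesium chelatase that commits tetrapyrroles to chlorophyll, was named after its value was seen, with 0.60 (SE 0.06, adjusted p = 0.00072).

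Some clock genes of the morning were higher and some of the evening lower. Morning and evening clock genes repress each other in the known circuit, LHY and CCA1 acting at the evening element of evening genes. Of 7 morning genes tested 3 were higher and none lower (median log2 fold change 0.61), and of 11 evening genes 3 were lower and none higher (median -0.30). LHY, a MYB factor that peaks at dawn, stood at 2.06, 2.09 and 1.80 CPM in Col-0 and at 7.06, 5.61 and 6.02 CPM in Col FRI (log2 fold change 1.65, SE 0.22, adjusted p = 0.0023). LNK1 and LNK2, coactivators of the morning loop, had 0.61 (SE 0.09) and 1.02 (SE 0.19), and CCA1, the partner of LHY, had 0.72 (SE 0.23) and was not called (adjusted p = 0.069). RVE6, a relative of both on the morning list, had -0.61 (SE 0.20) and was not called either (adjusted p = 0.074), and 1 morning gene was called lower without Col-0 replicate 1. JMJ30, a histone demethylase that cycles in the evening, stood at 50.8, 55.5 and 70.9 CPM in Col-0 and at 29.8, 29.4 and 28.4 CPM in Col FRI (log2 fold change -1.01, SE 0.12, adjusted p = 0.0016). LUX and ELF4, members of the evening complex, had -0.77 (SE 0.13) and -0.48 (SE 0.13). TOC1, PRR5, GI and ELF3 were not called, with values between -0.21 and 0.08. Without Col-0 replicate 3, 6 evening genes were called lower. The labels give no hour of dissection for either genotype, and its part in these values was not tested.

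The stretch before the annotated start site is shown for 5 called genes, each from a different list, so that motifs can be read in it. LHY, LHCB1.1 and GLDP1 were higher in Col FRI, and LUX and GH3.2 were lower. Each run holds the 150 bases before the start of the RefSeq gene model on build TAIR10.1, in the direction of transcription. Capitals mark matches on either strand to the G-box (CACGTG), the evening element core (AATATCT), the core of the CCA1-binding site (AAAATCT), the I-box (GATAAG), the auxin response element (TGTCTC), the RY element (CATGCA) and the C-repeat (GCCGAC).
LHY (chr1:37872-38021, minus strand): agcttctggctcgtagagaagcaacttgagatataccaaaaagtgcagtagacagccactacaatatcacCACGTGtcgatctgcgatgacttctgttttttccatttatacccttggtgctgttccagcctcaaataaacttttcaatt
LUX (chr3:17182892-17183041, plus strand): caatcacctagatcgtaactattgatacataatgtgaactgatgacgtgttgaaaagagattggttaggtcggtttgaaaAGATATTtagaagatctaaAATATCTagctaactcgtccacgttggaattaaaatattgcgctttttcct
LHCB1.1 (chr1:10475970-10476119, minus strand): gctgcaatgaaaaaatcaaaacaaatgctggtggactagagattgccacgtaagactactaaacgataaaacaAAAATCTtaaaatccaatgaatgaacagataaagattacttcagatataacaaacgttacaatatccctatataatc
GLDP1 (chr4:15931423-15931572, minus strand): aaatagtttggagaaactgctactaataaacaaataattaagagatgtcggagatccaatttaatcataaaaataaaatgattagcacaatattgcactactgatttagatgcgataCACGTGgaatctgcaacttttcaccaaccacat
GH3.2 (chr4:17579468-17579617, plus strand): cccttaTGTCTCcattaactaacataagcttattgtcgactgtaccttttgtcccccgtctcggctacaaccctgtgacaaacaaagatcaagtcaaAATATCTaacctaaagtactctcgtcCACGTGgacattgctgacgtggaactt

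In these runs LHY held a G-box 80 bases before its start, LUX held an evening element core on each strand, and LHCB1.1 held the CCA1-binding site core 77 bases before its start. GLDP1 held a G-box 33 bases before its start, and GH3.2 held an auxin response element, an evening element core and a G-box. Over windows from 250 bases before to 50 after the start, the evening element core was present at 8 of 11 evening clock genes and at 11.3% of the 17632 protein-coding genes tested. The G-box was present at 5 of 7 morning clock genes, at 10 of 22 photosystem subunits and at 8.93% of all. The CCA1-binding site core was present at 7 of 20 antenna genes and at 19.2% of all. Over all genes called, the G-box was present at 11.8% of those called higher and 8.85% of those called lower, and the evening element core at 9.69% and 11.6%. The RY element was present at 10.8% and 8.77%, against 8.10% of all. These shares were not tested. A match describes these letters only.

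**Figure D3:**
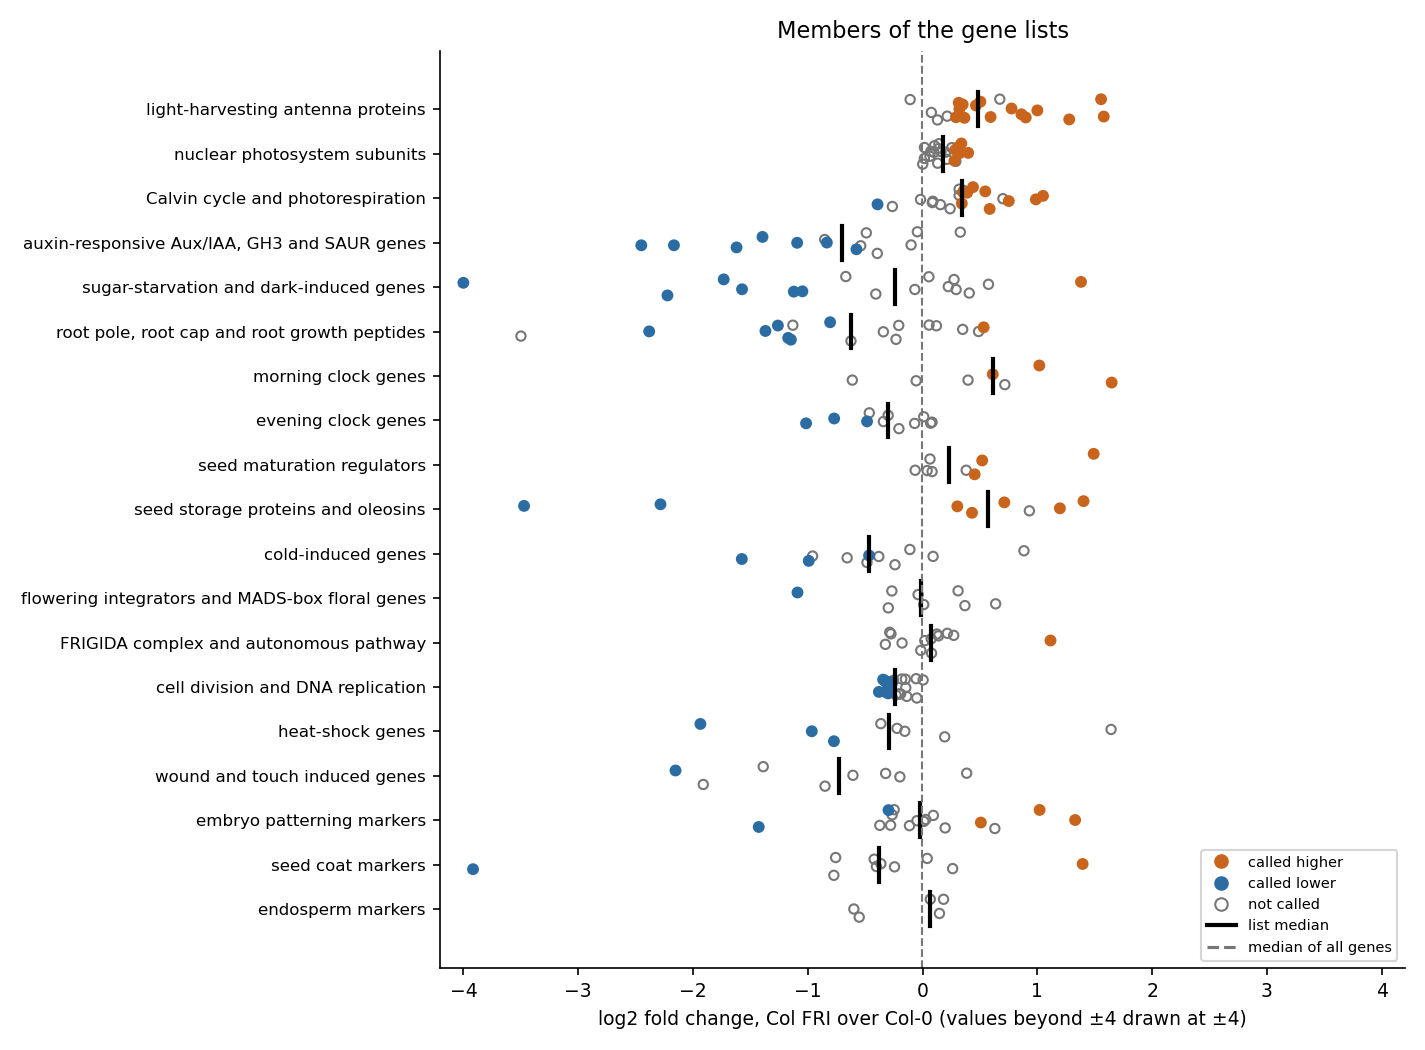
The log2 fold change of Col FRI over Col-0 (x axis) for each tested member of the 19 gene lists (y axis), with filled points for members called at adjusted p under 0.05, open points for the others, a bar at the list median and a dashed line at the median of all genes (-0.01). The antenna list lies almost wholly to the right with 15 of 20 members called higher, and the auxin-responsive list lies to the left with 7 of 14 called lower.

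Genes of seed filling were higher in part. Of 8 maturation regulators tested 3 were higher and none lower (median log2 fold change 0.23). L1L, a subunit of nuclear factor Y related to LEC1, stood at 9.80, 10.7 and 16.7 CPM in Col-0 and at 36.7, 33.6 and 33.4 CPM in Col FRI (log2 fold change 1.49, SE 0.17, adjusted p = 0.0011). ABI3, a B3 factor of the maturation programme, had 0.45 (SE 0.06), and WRI1, the activator of fatty acid synthesis, had 0.52 (SE 0.10). LEC1, LEC2 and FUS3 were not called, at 0.08 (SE 0.07), 0.04 (SE 0.12) and -0.06 (SE 0.12).

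The 5 oleosin genes tested, whose products coat the oil bodies of the seed, were called higher, but with 1 Col FRI library left out 2 or 3 genes of their list were. OLEO3 stood at 294, 299 and 337 CPM in Col-0 and at 485, 529 and 509 CPM in Col FRI (log2 fold change 0.71, SE 0.08, adjusted p = 0.0012), and OLEO1 had 1.4 (SE 0.26). The 3 storage protein genes tested were at low levels and did not share a direction. CRA1, a 12S-type globulin gene, and SESA1, an albumin gene, were lower, with CRA1 between 0.598 and 0.618 CPM in Col-0 and between 0.0684 and 0.160 CPM in Col FRI. SESA1 was uneven in Col-0, at 3.18, 9.47 and 0.843 CPM. Both of these calls were lost with any 1 Col FRI library left out and with a replicate block. SESA3, another albumin gene, was not called, with 0.93 (SE 0.48) and 0.393 to 0.615 CPM in Col-0 against 0.744 to 1.18 CPM in Col FRI.

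Auxin-responsive genes were lower as a group. Of 14 Aux/IAA, GH3 and SAUR genes tested 7 were lower and none higher, and 13 of 14 fold changes were below 0 (median -0.70). Beside GH3.2, the conjugating enzymes GH3.1, GH3.3 and GH3.6 had log2 fold changes of -2.45 (SE 0.60), -0.83 (SE 0.21) and -1.09 (SE 0.28). IAA17, a repressor of auxin response, stood at 5.98, 5.70 and 8.43 CPM in Col-0 and at 2.35, 2.53 and 2.73 CPM in Col FRI (log2 fold change -1.39, SE 0.22, adjusted p = 0.0048). SAUR41 had -1.62 (SE 0.30) and IAA4 had -0.58 (SE 0.16). IAA12, the repressor that acts in early embryo patterning, was not called (-0.05, SE 0.07). With 1 Col FRI library left out 2 or 3 members were called lower, and without Col-0 replicate 3 the number was 10.

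Several genes of the root pole were lower, although not its master regulators. Of 17 genes of the root pole, root cap and root growth peptides tested 6 were lower and 1 higher (median -0.62). The zinc finger factors NTT, WIP4 and WIP5, which act together in forming the root meristem, had -1.17 (SE 0.19), -1.15 (SE 0.14) and -2.38 (SE 0.27). WIP5 stood at 4.7, 3.9 and 3.2 CPM in Col-0 and at 0.642, 0.958 and 0.682 CPM in Col FRI. WOX5, which marks the quiescent centre, had -0.81 (SE 0.18), and the root growth peptide genes RGF4 and RGF5 had -1.26 (SE 0.27) and -1.37 (SE 0.23). SCR, a factor of the ground tissue, was the member called higher (0.53, SE 0.12), a call lost with any 1 Col FRI library left out. PLT1, PLT2, PLT3 and BBM, the PLETHORA factors of the root meristem, were not called, with values from -0.21 to 0.35.

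Genes known to rise in darkness or when sugar runs short were lower in part. Of 16 tested 6 were lower and 1 higher (median -0.24). Beside DIN10, SEN5 stood at 105, 82.2 and 58.6 CPM in Col-0 and at 24.9, 22.9 and 26.2 CPM in Col FRI (log2 fold change -1.73, SE 0.17, adjusted p = 0.00071). In the embryos overexpressing FCA SEN5 stood at 27.6, 27.4 and 26.5 CPM, so that here Col-0 was the genotype apart. The dormancy-associated DRM1 had -1.12 (SE 0.21), the hexose carrier STP1 had -1.05 (SE 0.14), and SEN4, a xyloglucan endotransglucosylase, had -2.22 (SE 0.25). MIOX2, a myo-inositol oxygenase, was at 4.00, 4.51 and 0.674 CPM in Col-0 and at 0.0684 CPM or less in Col FRI. BCAT2, which acts on branched-chain amino acids, was higher, with 1.38 (SE 0.37), but no member was called higher with any 1 Col FRI library left out.

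Cell division genes showed small differences in 1 direction. Of 20 tested 8 were lower and none higher, and 19 of 20 fold changes were below 0, with a median of -0.24. AUR1, an Aurora kinase of mitosis, stood at 59.4, 58.9 and 55.2 CPM in Col-0 and at 46.3, 43.7 and 43.2 CPM in Col FRI (log2 fold change -0.38, SE 0.06, adjusted p = 0.0059). KNOLLE, the syntaxin of the cell plate, had -0.34 (SE 0.08), and the replication clamps PCNA1 and PCNA2 had -0.27 (SE 0.07) and -0.28 (SE 0.07). With any 1 Col FRI library left out 1 member was called, and without Col-0 replicate 3 the number was 11.

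**Figure D4:**
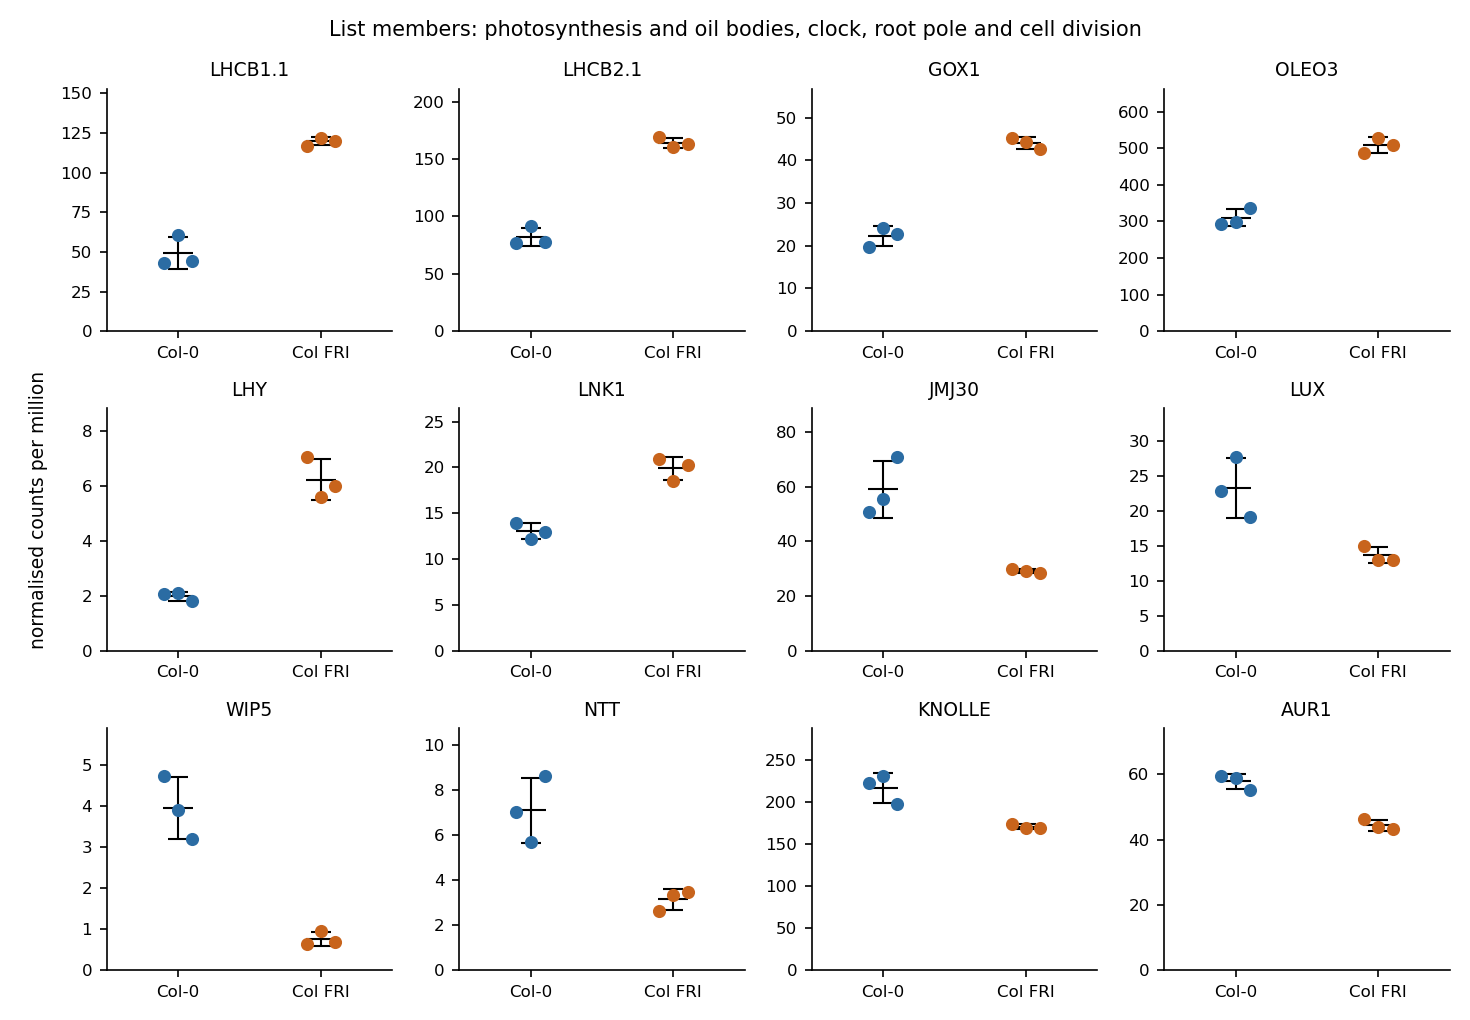
CPM (y axis, from 0) of 12 list members that were called, 1 point for each library, with the mean and SD of 3 libraries as bars. LHY lies at 5.61 to 7.06 CPM in Col FRI against 1.80 to 2.09 CPM in Col-0, and AUR1 shows the smaller differences of the cell division list, at 43.2 to 46.3 CPM against 55.2 to 59.4 CPM.

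Embryo patterning genes gave no common direction. Of 16 tested 3 were higher and 2 lower, and none was called lower with any 1 Col FRI library left out. The median of -0.02 turned to 0.09 without Col-0 replicate 3. KNAT1, a KNOX homeobox gene of the shoot, stood at 4.04, 3.03 and 6.12 CPM in Col-0 and at 10.5, 10.5 and 11.8 CPM in Col FRI (log2 fold change 1.33, SE 0.21), ATHB8, a provascular homeobox gene, had 1.02 (SE 0.18) and WOX9 had 0.51 (SE 0.11). PDF2, which specifies the outer layer, and WUS, the organiser of the shoot meristem, had -0.30 (SE 0.06) and -1.43 (SE 0.34). STM, MP, WOX2 and ATML1 were not called.

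Genes known to be induced by cold were lower in part. Of 11 cold-induced genes tested 3 were lower and none higher (median -0.47), with 1 or 2 called lower when a Col FRI library was left out and 5 without Col-0 replicate 3. ERD10, a dehydrin, stood at 17.1, 24.1 and 20.3 CPM in Col-0 and at 6.26, 7.53 and 6.89 CPM in Col FRI (log2 fold change -1.57, SE 0.16, adjusted p = 0.00086). COR47, another dehydrin, and COR27 had -0.99 (SE 0.23) and -0.47 (SE 0.09). VIN3, the Polycomb partner induced by long cold, was not called (0.09, SE 0.30). Of 8 flowering genes tested SVP, a MADS-box repressor that acts with FLC, was called lower (-1.09, SE 0.14), and the FLC relatives FLM, MAF2, MAF3 and MAF5 were not called. Of 13 genes of the FRI complex and the autonomous pathway FRI was the 1 called.

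Some genes of handling stress and of neighbouring tissues varied widely among the Col-0 libraries, as did some genes of other groups. Of 8 heat-shock genes tested 3 were lower in Col FRI, HSP70-4 with -0.77 (SE 0.13), MBF1C with -0.96 (SE 0.16) and HSFA2 with -1.94 (SE 0.50), the last at 7.14, 22.9 and 4.72 CPM in Col-0. Of 8 wound and touch genes ZAT10 was called lower, and TCH3, not called, ranged from 1.63 to 28.6 CPM in Col-0, the highest being replicate 2. The summed level of the 13 seed coat markers was 22.5 to 43.7 TPM in Col-0 and 26.9 to 28.7 TPM in Col FRI, and that of the 10 endosperm markers was 1.92 to 5.20 TPM and 2.99 to 3.35 TPM, so that both overlapped between the genotypes. Of 10 seed coat markers tested F3H, of flavonoid synthesis, was higher and PRX36, a peroxidase of the mucilage cells, lower. None of 5 endosperm markers tested was called by edgeR, DESeq2 or limma, and 0 had an unadjusted p under 0.05.

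Across the 19 lists 242 of 303 genes could be tested, of which 49 were called higher and 44 lower. All 93 kept their direction in each of the 15 alternative settings where they could be fitted. These settings refit the same libraries and the genes were picked by their call, so a kept direction adds no separate evidence. The number still called was 41 to 46 with 1 Col FRI library left out, 65 to 91 with 1 Col-0 library left out, and 2, GLDP1 and GH3.2, with the Col FRI libraries summed.

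Gene families drawn from the annotation showed the same mixture, beside 6.04% of all genes higher and 7.22% lower. Of 25 chlorophyll a/b-binding proteins tested 19 were higher and none lower, a family that includes the antenna list. Of 44 GDSL lipases, esterases of surface lipids and the wall, 7 were lower and none higher (median -0.23). AT5G45670, one of them, stood at 162, 215 and 187 CPM in Col-0 and at 92.0, 90.8 and 94.7 CPM in Col FRI (log2 fold change -1.02, SE 0.10). Among 13 expansins, which loosen the wall, 4 were lower and 1 higher, EXPA1 with -0.76 (SE 0.11) and EXPA9 with -1.03 (SE 0.20). Of 43 lipid transfer proteins 6 were lower and 2 higher, the latter led by DIR1 with 0.90 (SE 0.11).

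Of 326 ribosomal proteins tested 22 were lower and 3 higher. The share called was close to that of all genes on the lower side (7.22%), but 254 of the 326 fold changes were below 0, with a median of -0.12. AT5G39850, a ribosomal protein S4 gene, was called lower with -0.66 (SE 0.08), and AT3G11250, an L10 gene, with -0.61 (SE 0.09). Members of multigene families of this kind share reads, so single copies are uncertain.

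Among regulators, all 4 WRKY factors called of 29 tested were lower, WRKY17 with -0.49 (SE 0.08) and WRKY23, an auxin-inducible factor, with -1.64 (SE 0.31). One of the 4, WRKY22, lies within 2 Mb of FRI. Of 31 AT-hook proteins 4 were higher and 1 lower, SOB3 being the member with the largest difference among those called. Of 30 nuclear factor Y subunits 4 were higher and 1 lower. Of 128 receptor-like kinases 13 were higher and 4 lower, against 6.04% and 7.22% of all genes. Of 33 ABC transporters 6 were higher and 1 lower, with the half-size carriers ABCG8 at 1.24 (SE 0.17), ABCG4 at 1.1 (SE 0.19) and ABCG5 at 0.96 (SE 0.18). ABCG8 stood at 2.69, 3.61 and 2.70 CPM in Col-0 and at 7.59, 7.32 and 6.33 CPM in Col FRI. Of 78 cytochromes P450 9 were higher and 7 lower, among the latter CYP707A1 and DWF4, the brassinosteroid 22-hydroxylase, with -0.55 (SE 0.08).

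Large families without a direction were F-box proteins (6 higher and 15 lower of 188), pentatricopeptide repeat proteins (7 and 12 of 260) and NLR disease resistance proteins (5 and 3 of 90). Over all genes 6.04% were higher and 7.22% lower. Of the 4 glutamine dumper genes tested, which export amino acids when overexpressed, 2 were lower. GDU5 stood at 14.3, 9.30 and 2.70 CPM in Col-0 and at 1.12, 0.821 and 0.806 CPM in Col FRI, a group difference of -3.25 on the log2 scale (SE 0.62) with a wide spread within Col-0.

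A few loci were seen in 1 genotype alone, by a rule of 3 counts or fewer in each library of 1 genotype and 30 or more in each of the other. There were 5 such genes, of which AT4G04223, AT4G01593 and AT4G00600 lie within 2 Mb of FRI. Outside that window, AT5G35935, a pseudogene (chromosome 5, 14083388 to 14089891), had 370, 293 and 338 counts in Col FRI and 0 in each Col-0 and each 35S::FCA library. Set against a floor of 3 counts in each Col-0 library, its level was at least 151-fold higher in Col FRI. The 3 genes tested within 15 kb include AT5G35935 itself. Its neighbour AT5G35940, a lectin-like gene, was called lower with -1.73 (SE 0.43), and AT5G35930 was not called (-0.08, SE 0.18). Over all genes 13.3% were called.

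AT3G21040, a pseudogene (chromosome 3, 7372760 to 7374364), showed the reverse, with 67, 47 and 63 counts in Col-0 and 1, 0 and 1 in Col FRI. Its 35S::FCA libraries held 46, 61 and 53 counts. The neighbouring AT3G21000, a Gag-Pol-related gene, and the pseudogenes AT3G21020 and AT3G21030 were called lower as well, with -1.80 (SE 0.39), -1.79 (SE 0.39) and -2.16 (SE 0.36), whereas AT3G21010 between them was not called (-0.26, SE 0.11). P5CR and AT5G14840 also lie close together on chromosome 5, at 4785960 to 4787996 and at 4798329 to 4800738. Of 10 genes tested within 15 kb of P5CR, itself among them, 3 were called, beside 13.3% of all genes. They were P5CR and AT5G14840, already picked as leading genes, and FDH, a formate dehydrogenase, which was higher (0.57, SE 0.08).

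The mixture of transcript models within a gene was tested apart from its level. Usage differed at 68 of 3679 genes tested (1.85%). Of the 68, 17 were also called in level, beside 13.3% of all 18585 genes tested for level. The share called in level among the 3679 genes alone was not determined. Leaving out 1 library gave 50 to 77 genes, of which 27 to 38 were among the 68. After FLC and FCA the smallest p belonged to AT5G64910, a kinase-like gene on chromosome 5, with a nearly complete exchange of models (adjusted p = 0.00045). In Col-0 all counts went to model 1, at 44, 36 and 38, and in Col FRI nearly all went to model 2, at 35, 25 and 24, while the 35S::FCA libraries resembled Col-0 with 26, 50 and 26 counts on model 1.

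The models of AT5G64910 differ by 9 bases in the length given in the deposited files, and RefSeq places such a difference at the start of exon 6, where model 1 begins upstream of model 2. The run below is the plus strand of chr5:25942267-25942335 on TAIR10.1, and is shown because the exchange can be read in it; capitals mark the 9 bases that belong to the exon in model 1 alone.
AT5G64910 exon 6 start: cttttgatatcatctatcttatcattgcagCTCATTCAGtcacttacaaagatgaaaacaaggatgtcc
Both the intron before the capitals and the capitals themselves end in the letters AG that usually close an intron. Model 1 in RefSeq is 1526 bases long and 1547 in the deposited files, so the models are not the same at every end, and the sequence of the Col FRI line itself was not analysed here.

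Less complete shifts were found at AT5G01780, a dioxygenase gene, where model 1 took 28, 22 and 18 counts in the Col FRI libraries and none in Col-0. At AT1G66260, an RNA-binding protein gene, model 2 took 35.7, 30.8 and 14.9 counts in Col FRI and had 0 in each library of Col-0, beside 804 to 1611 counts on model 1 in the 6 libraries. The libraries overexpressing FCA held 13.3, 47.3 and 26.9 counts on model 2 of AT1G66260, so that here Col-0 was the genotype apart. At AT3G08680, a receptor-like kinase gene, model 1 held 1.60% to 2.33% of the transcripts in Col-0 and had 0 counts in Col FRI. The libraries overexpressing FCA resembled Col-0 at AT3G08680, with 15.2, 52.3 and 22.2 counts on model 1. They did so at AT5G01780 too, with at most 2.15e-05 counts on model 1.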

How the data were processed

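Per the labels and the study's methods, total RNA of early heart embryos was amplified by Smart-seq2, and the authors quantified the reads with kallisto against TAIR10 transcripts; the kallisto version is not given in the sources used here. The deposited tables give an estimated count and a TPM value, a length-scaled share of transcripts, for each transcript model. Estimated counts were summed per locus, and the sums were rounded to whole numbers for the count tests. TPM was used only for the marker levels.

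All 9 libraries were fitted with genotype as the factor in edgeR 4.0.16 (R 4.3.3) by the quasi-likelihood test, after edgeR's expression filter and TMM normalisation, and Col FRI was contrasted with Col-0 with Benjamini-Hochberg adjustment over all genes tested. CPM values are TMM-normalised. A gene was called at an adjusted p under 0.05. The SE of a log2 fold change was taken from the test statistic. Isoform usage was tested with edgeR's exon-usage test on transcript models. Alternatives used DESeq2 1.42.0, limma 3.58.1, other normalisations and filters, only the 6 libraries, a replicate block, the Col FRI libraries summed, and each library left out in turn. Tested on simulated data for Col FRI against Col-0 with 18080 genes, the gene test recovered 89 of 100 planted 2-fold changes. It recovered 100 of 100 planted 4-fold changes, with 7 false calls. The isoform test recovered 200 of 200 planted changes among 3582 genes, with 16 false calls. Every genotype was simulated with the same spread, whereas the coefficient of variation was 0.0348 in Col FRI and 0.221 in Col-0. The false calls in simulated data therefore do not measure those in the real comparison.

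The genes named are FLC and FRI, the 10 higher and 10 lower genes of smallest p with a fold above 2 and no overlap outside 2 Mb of FRI, up to 4 called members of each list and family, 6 genes of isoform usage and those seen in 1 genotype. Members not called are named to show a list's spread, and some further called members were named after their values were seen. The gene lists and families were chosen with earlier results of these data known, and LOB-domain proteins, sugar transporters, glutathione S-transferases, MATE proteins and auxin efflux carriers were added after values were seen. Promoter, exon and product annotations came from RefSeq on TAIR10.1.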

Additional observations from a re-analysis of the deposited data

How the results depend on the processing

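FLC was called in each of the 15 alternatives, and the 93 called list genes kept their sign where they could be fitted. Since the alternatives refit the same libraries, a kept sign is no separate evidence. Some medians changed sign: that of storage proteins and oleosins, 0.57, was -0.10 with DESeq2 and -0.77 with no filter, where 14 genes in place of 8 were tested; that of embryo patterning genes, -0.02, was 0.09 without Col-0 replicate 3 and 0.0014 with limma; and that of all genes, -0.0079, was 0.0097 with limma and 0.0013 with a replicate block. With the Col FRI libraries summed, 8 genes were higher and 12 lower, and at the stricter rule 3 and 0; edgeR gave 2179 genes an unadjusted p under 0.05 there, and DESeq2 on all libraries called 127 lower at the stricter rule. Leaving out 1 library gave 300 to 1864 genes higher and 308 to 2275 lower, 3 to 19 and 1 to 36 at the stricter rule, and 50 to 77 genes of isoform usage. At the stricter rule DESeq2 gave 63 higher and 127 lower, no filter on low counts 30 and 74, only the 6 libraries 6 and 6, and limma 41 lower. The cause of these shifts was not tested. Of the 155 genes named by rule, 13 were still called with the Col FRI libraries summed, and 103 to 112 with 1 Col FRI library left out.

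Same-numbered Col-0 and Col FRI libraries did not deviate together (correlations across genes of -0.0018, -0.031 and 0.014). The Col FRI libraries differed by little more than counting noise, so these values cannot show whether the numbers pair the samples. With a replicate block 815 genes were higher and 947 lower, 7 and 6 at the stricter rule.

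The 3 libraries a genotype and the near-identical Col FRI libraries limit each call, and counts on near-identical paralogs are uncertain at any depth.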

Other observations

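Families added after values were seen are given beside 6.04% of all genes higher and 7.22% lower. Of 16 LOB-domain factors tested 4 were lower and 1 higher. LBD19 stood at 1.80, 1.43 and 1.74 CPM in Col-0 and at 0.321, 0.616 and 0.310 CPM in Col FRI (log2 fold change -2.0, SE 0.32), and JLO, within 2 Mb of FRI, was the higher member (2.11, SE 0.56). Of 45 sugar transporters 5 were lower and 1 higher. The sucrose carrier SUC1 stood at 13.4, 14.3 and 12.8 CPM in Col-0 and at 4.92, 3.08 and 5.21 CPM in Col FRI (-1.61, SE 0.20), and SWEET9 was the higher member (0.60, SE 0.14).

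Of 30 MATE efflux proteins 4 were higher and 5 lower, AT1G66760 with -2.73 (SE 0.33) and ADS1 with 0.71 (SE 0.10). Of 40 glutathione S-transferases 4 were higher and 2 lower. Of 11 auxin efflux carriers PIN7, which directs auxin in the embryo, was lower (-1.06, SE 0.25) and AT5G01990 higher (0.51, SE 0.10).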
